A study of Homo sapiens with 2 samples.

Results

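The genes described here are the Fos and Jun subunits of the transcription factor AP-1 and a small group of immediate-early and growth genes: FOS, FOSB, FOSL1, FOSL2, JUN, JUNB, JUND, EGR1, IER2 and MYC. They were chosen by gene name, with earlier results of these data known. All 10 were found among the 19029 genes of the authors' deposited table, with a count in each library. RNA was sequenced from BT549, an established mesenchymal breast cancer cell line that lacks the oestrogen and progesterone receptors, in cells with the genotype SNHG15 overexpression (SNHG15 cells; SNHG15 is the non-coding host gene of a small nucleolar RNA) and in cells with the genotype vector control (vector cells). Both were grown in DMEM with foetal bovine serum. Whether either is 1 clone or a pool of transfected cells is not stated here. Each group was 1 library. Differences therefore have no replicate check and no p-value was computed. The 95% intervals cover counting error only.

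AP-1 is a dimer of basic leucine zipper proteins, in which a Jun protein pairs with itself or with a Fos protein, and Fos proteins do not form stable dimers with each other. FOS, FOSB, EGR1 and IER2 are classical immediate-early genes, transcribed within minutes of a growth stimulus without new protein synthesis and soon silenced, and their messages are short-lived. In mesenchymal breast cancer cells FOSL1, the gene of FRA-1, is known as a main Fos protein, kept high by ERK signalling.

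The promoters of 8 of these genes were matched by symbol in RefSeq promoter windows (GRCh38.p14), each of 250 bases before and 50 bases after the gene's start. No window was found for FOSL1 or MYC, so the motif counts below do not cover them. The 4 shown are that of IER2, the matched gene with the lowest ratio in the results below, and those of EGR1, JUN and JUND, in which a regulatory motif known from these genes was found. Only the bases before the start are printed, 5′ to 3′ on the gene's strand. The starts are those of the windows and can differ from the gene coordinates given below. The printed JUN stretch lies inside those coordinates, as do the FOSL2 bases before the start and some of those of FOS. Capitals mark CArG boxes in EGR1, the site TGACATCA in JUN, the cyclic AMP response element TGACGTCA in JUND, and the GGAA core of ETS factors, read as TTCC on the printed strand, in IER2.
IER2, chr19:13150161-13150410, plus strand: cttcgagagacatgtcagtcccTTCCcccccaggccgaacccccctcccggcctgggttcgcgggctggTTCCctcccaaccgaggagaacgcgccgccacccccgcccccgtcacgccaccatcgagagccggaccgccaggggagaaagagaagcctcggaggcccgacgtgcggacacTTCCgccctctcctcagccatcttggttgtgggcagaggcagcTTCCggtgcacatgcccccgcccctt
EGR1, chr5:138465229-138465478, plus strand: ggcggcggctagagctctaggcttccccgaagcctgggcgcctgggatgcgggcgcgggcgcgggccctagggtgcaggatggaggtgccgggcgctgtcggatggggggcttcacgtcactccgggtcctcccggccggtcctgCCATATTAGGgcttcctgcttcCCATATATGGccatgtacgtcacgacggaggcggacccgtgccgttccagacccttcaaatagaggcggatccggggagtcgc
JUN, chr1:58784048-58784297, minus strand: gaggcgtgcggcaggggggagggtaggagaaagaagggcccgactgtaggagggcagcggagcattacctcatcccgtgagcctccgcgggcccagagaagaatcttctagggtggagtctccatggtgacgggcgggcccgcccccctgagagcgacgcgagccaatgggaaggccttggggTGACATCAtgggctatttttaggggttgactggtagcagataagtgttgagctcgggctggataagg
JUND, chr19:18281623-18281872, minus strand: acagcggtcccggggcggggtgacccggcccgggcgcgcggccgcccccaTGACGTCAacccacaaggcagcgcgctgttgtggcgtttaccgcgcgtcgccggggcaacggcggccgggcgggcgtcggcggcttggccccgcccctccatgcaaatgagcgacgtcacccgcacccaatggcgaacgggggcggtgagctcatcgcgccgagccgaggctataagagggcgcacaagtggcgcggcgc

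Both strands of each whole window were searched for exact matches. Sites outside the windows and inexact matches were not sought, so a gene without a match can still have the site elsewhere. The CArG box, the binding site of serum response factor, was in the EGR1 window alone among the 8, which held 2 copies, against 1.29% of 35116 RefSeq promoter windows. TGACGTCA was in 1 of the 8 (JUND), against 1.85% of all windows. TGACATCA, the variant AP-1 site of the JUN promoter, was in 1 of the 8 (JUN), against 2.61%. The AP-1 site TGACTCA or TGAGTCA was in 1 of the 8 (FOSL2, after the start used for its window), against 4.95%. The E-box CACGTG, which MYC binds, was in 0 of the 8, against 7.26%. GGAA was in 7 of the 8, all but JUND, against 95.5%. The IER2 window thus held GGAA and no other motif searched. The GGAA core of EGR1 at the second CArG box overlaps that box by 1 base.

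The library of SNHG15 cells held 16570496 counts and that of vector cells 20799017. SNHG15 itself had 34450 counts in SNHG15 cells and 466 in vector cells, an 85.6-fold difference (78.1 to 94.0). Of 10 mesenchymal markers, all were measured, 2 were higher past 1.5-fold (CDH2 and SPARC) and 4 lower (among them COL1A1, THY1 and FN1), against 13.3% higher and 12.2% lower among all genes, and their summed levels were 5468 CPM in SNHG15 cells and 6643 CPM in vector cells. The epithelial cadherin CDH1 was at 12 counts in SNHG15 cells and 11 in vector cells. Of 10 luminal and epithelial markers, 7 were found by name in the authors' deposited table. They summed to 795 CPM in SNHG15 cells and 1299 CPM in vector cells, most of it from the keratin KRT18. The keratin KRT19 was at 0 counts in SNHG15 cells and 23 in vector cells. The claudin CLDN7, which overlaps ELP5 on the opposite strand, was at 2 in SNHG15 cells and 40 in vector cells. The luminal factor GATA3 had 1125 counts in SNHG15 cells and 1171 in vector cells, a ratio of 1.11 (1.02 to 1.21), and FOXA1 had 6 in SNHG15 cells and 1 in vector cells. Of 8 blood and endothelial markers, only CD68 and TEK were found by name in that table, with a summed level of 4.11 CPM in SNHG15 cells and 23.1 CPM in vector cells. CD68, which overlaps another gene of its strand, had 68 counts in SNHG15 cells and 387 in vector cells. TEK had 3 counts in SNHG15 cells and 74 in vector cells. Whether these marker differences have a part in the results below was not tested.

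Of the AP-1 and immediate-early genes, FOSL1 and IER2 were lower in SNHG15 cells by 3.76-fold and 4.64-fold, and the ratios of the others lay within 1.5-fold. The intervals of FOS, FOSB and EGR1 reach past 1.5-fold. JUND passed it once a trend with GC content, described below, was removed. In bulk RNA, fewer cells that express a gene and less of its RNA per cell cannot be told apart. Counts were scaled by TMM and given as CPM, and all 10 genes passed the minimum of a mean of 1 CPM that left 12934 genes for comparison. A gene was beyond 2-fold where the whole 95% interval of its ratio lay above 2 or below 0.5. By this rule 2 of the 10 were lower and 0 higher, against 2.45% lower and 2.20% higher among all genes compared (317 and 285 genes). A gene was past 1.5-fold where the ratio was at least that far from 1 and the interval left out 1, and the same 2 of 10 were lower and 0 higher, against 12.2% lower and 13.3% higher among all genes. The median log2 ratio was −0.17 over the 10 genes and 0.02 over all genes compared. Because the 10 genes were chosen with earlier results of these data known, these counts and medians are no independent check. Scaling by library totals gave a median log2 ratio of 0.13 over all genes compared, and 366 genes beyond 2-fold higher and 237 lower, with the same 2 members called.

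**Figure D1:**
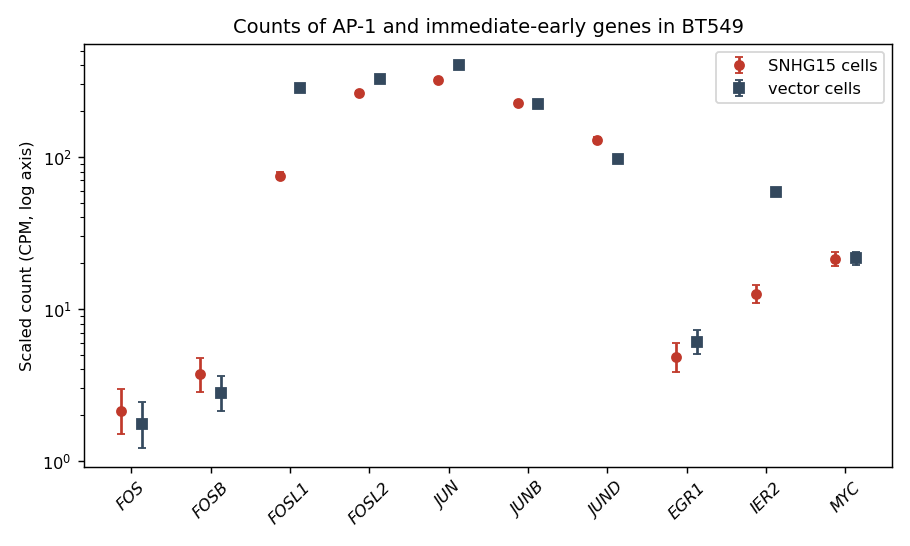
Scaled count (CPM, log axis) of each gene in SNHG15 cells (circles) and vector cells (squares), with 95% counting intervals. FOSL1 and IER2 are the genes whose points stand far apart, at 75.2 and 12.6 CPM in SNHG15 cells, against 282.6 and 58.6 CPM in vector cells.

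FOSL1 (ENSG00000175592), the gene of the Fos protein FRA-1, is on chromosome 11, 65892049 to 65900573 (hg38), minus strand. It had 1298 counts in SNHG15 cells, against 5645 in vector cells. Scaled, this was 75.2 CPM in SNHG15 cells and 282.6 CPM in vector cells, a 3.76-fold lower level (3.54 to 3.99). Its whole interval lay past 2-fold, and no other gene overlaps it in the table. The log2 ratio of −1.91 was at the 0.990 percentile of all genes compared. In the authors' deposited table FOSL1 had a log2 ratio of FPKM of −1.79, with an adjusted p-value of 1.51e-16 from edgeR.

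IER2 (ENSG00000160888), a nuclear immediate-early protein, lies on the plus strand of chromosome 19 at 13150415 to 13154908. It had 218 counts in SNHG15 cells, against 1170 in vector cells. Scaled, it was at 12.6 CPM in SNHG15 cells and 58.6 CPM in vector cells, 4.64-fold lower (4.01 to 5.38). Its log2 ratio of −2.20 was at the 0.657 percentile of all genes. The antisense gene AC011446.2 overlaps it but had only 2 counts in SNHG15 cells and 4 in vector cells. In the authors' deposited table IER2 had a log2 ratio of −2.10 and an adjusted p-value of 1.24e-18 from edgeR. The deposited p-values equal those of an edgeR exact test with an assumed coefficient of variation of 0.1, since 1 library per group cannot give one.

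FOSL2 (ENSG00000075426), the gene of FRA-2 and a relative of FOSL1, lies on the plus strand of chromosome 2 at 28392448 to 28417312. It had 4520 counts in SNHG15 cells, against 6545 in vector cells, or 262.0 CPM in SNHG15 cells and 327.7 CPM in vector cells. Its ratio was 0.799 (0.770 to 0.831), so it was lower beyond counting error but by far less than FOSL1, and the intervals of the 2 ratios do not overlap.

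FOS (ENSG00000170345; chromosome 14, 75278774 to 75282230, plus strand), the founding Fos gene, was low in both libraries. It had 37 counts in SNHG15 cells and 35 in vector cells, or 2.14 CPM in SNHG15 cells and 1.75 CPM in vector cells. Its ratio was 1.22 (0.750 to 2.001), an interval that includes 1 and reaches 2-fold higher.

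FOSB (ENSG00000125740; chromosome 19, 45467995 to 45475179, plus strand), another fast-induced Fos gene, had 64 counts in SNHG15 cells and 56 in vector cells. Its ratio was 1.32 (0.910 to 1.93), at 3.71 CPM in SNHG15 cells and 2.80 CPM in vector cells. It overlaps ERCC1 on the opposite strand, which had 3180 counts in SNHG15 cells and 4564 in vector cells. The sources used here do not give whether strand was kept, so the few reads of FOSB are uncertain.

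Among the Jun genes, JUN was somewhat lower, JUNB was level and JUND was somewhat higher. JUN (ENSG00000177606; chromosome 1, 58780788 to 58784327, minus strand), the gene of c-Jun, had 5559 counts in SNHG15 cells and 8077 in vector cells. It was at 322.2 CPM in SNHG15 cells and 404.4 CPM in vector cells, a ratio of 0.797 (0.770 to 0.825). JUNB (ENSG00000171223; chromosome 19, 12791496 to 12793315, plus strand), which can oppose c-Jun at some promoters, had 3913 counts in SNHG15 cells and 4436 in vector cells. It was at 226.8 CPM in SNHG15 cells and 222.1 CPM in vector cells, a ratio of 1.02 (0.978 to 1.07) that was 1.27 with the GC trend removed. It overlaps HOOK2 on the opposite strand, with 233 counts in SNHG15 cells and 340 in vector cells.

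JUND (ENSG00000130522; chromosome 19, 18279760 to 18281622, minus strand), the Jun gene known for steady expression in resting cells, had 2234 counts in SNHG15 cells and 1950 in vector cells. Its level was 129.5 CPM in SNHG15 cells and 97.6 CPM in vector cells, a ratio of 1.33 (1.25 to 1.41). Log2 ratios fell with the GC content of the transcript over all genes (Spearman's rho −0.32 across 12895 genes, a description since genes vary together), and JUND is the most GC-rich of the 10 at 69.7%. With the GC trend removed its ratio was 1.76, which passed 1.5-fold, against 11.7% of all genes higher by that rule. FOSL1 and IER2, at 60.0% and 61.7% GC, were 3.23-fold and 3.89-fold lower with the trend removed and were again beyond 2-fold, against 2.07% of all genes lower by that rule.

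EGR1 (ENSG00000120738; chromosome 5, 138465490 to 138469315, plus strand), a zinc-finger factor induced through serum response factor, was low in both libraries. It had 83 counts in SNHG15 cells and 121 in vector cells, or 4.81 CPM in SNHG15 cells and 6.06 CPM in vector cells. The ratio of 0.794 (0.593 to 1.06) did not differ from 1 beyond counting error. The classical immediate-early genes thus did not share 1 ratio: the interval of IER2 overlaps none of those of EGR1, FOS and FOSB. Whether the promoter motifs have a part in these ratios was not tested.

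MYC (ENSG00000136997; chromosome 8, 127735434 to 127741434, plus strand), the growth-promoting factor that pairs with MAX, had 367 counts in SNHG15 cells and 431 in vector cells. It was at 21.3 CPM in SNHG15 cells and 21.6 CPM in vector cells, a ratio of 0.986 (0.855 to 1.14). The sign of its log2 ratio of −0.02 depended on the scaling and was positive by library totals (0.10). Over the 10 genes, the interval of the ratio lay below 1 for 4 (FOSL1, IER2, FOSL2 and JUN), above 1 for 1 (JUND) and included 1 for 5. Among all genes compared, 38.0% had an interval that included 1.

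**Figure D2:**
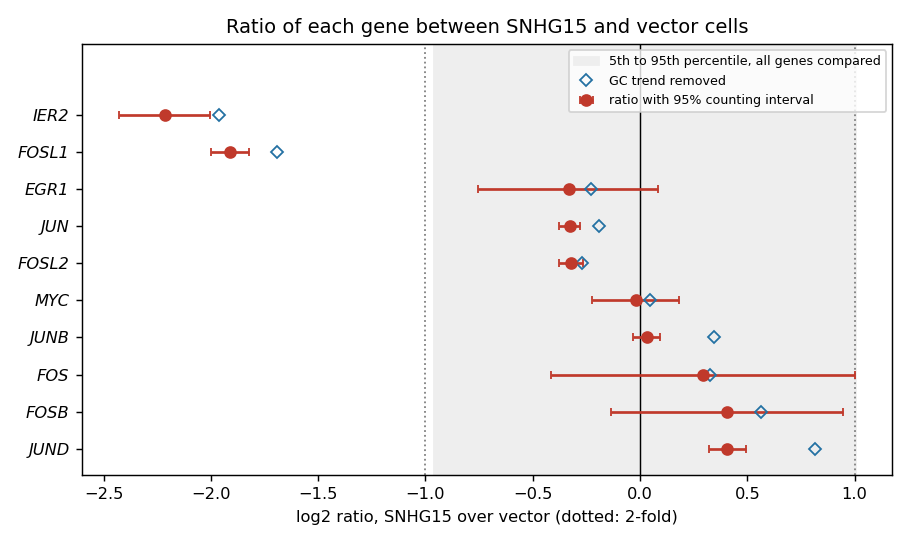
Log2 ratio of each gene (SNHG15 over vector) with its 95% counting interval, and the same with the GC trend removed (diamonds). The grey band spans the 5th to 95th percentile of all genes compared, −0.962 to 1.004, and IER2 and FOSL1 lie outside it.

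Levels of different genes were compared per length. The length implied by the deposited counts and FPKM matched, within 1%, the summed length of all distinct exons of a gene in GENCODE 29 for 87.0% of 12832 genes with at least 20 counts in vector cells. Overlapping exons of alternative transcripts are thereby counted more than once, and the length covered by exons matched for 11.2%. FOSL1 has an implied length of 5150 bases where its exons cover 1887, and FOS 9099 where they cover 3238, while for JUN and JUNB, with 1 transcript each, both lengths are the same. The deposited FPKM therefore sets genes with many transcripts lower than genes with few, and levels below are CPM per kb of length covered by exons, a scale chosen after this was seen.

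On this scale FOSL1 was the highest of the 10 genes in vector cells and the fourth in SNHG15 cells. It was at 39.9 CPM per kb in SNHG15 cells (37.7 to 42.1), against 149.8 CPM per kb in vector cells (145.9 to 153.7). The order in SNHG15 cells was JUNB, JUN, JUND, FOSL1, FOSL2, MYC, IER2, EGR1, FOSB and FOS. In vector cells it was FOSL1, JUNB, JUN, JUND, FOSL2, IER2, MYC, EGR1, FOS and FOSB. In both libraries FOS and FOSB were the only neighbours in the order whose counting intervals overlapped. Among all genes compared, FOSL1 was at the 89.8 percentile of level in SNHG15 cells and the 97.0 percentile in vector cells, and IER2 at the 52.5 percentile in SNHG15 cells and the 79.6 percentile in vector cells. By deposited FPKM, JUNB led in both libraries, and FOSL1, at 15.2 FPKM in SNHG15 cells and 52.7 FPKM in vector cells, ranked below FOSL2 in SNHG15 cells and after JUNB and JUN in vector cells.

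The make-up of the Fos family differed between the libraries. FOSL1 made up 51.2% of the summed CPM per kb of the 4 Fos genes in SNHG15 cells (49.7 to 52.8), against 76.2% in vector cells (75.5 to 76.8). FOSL2 made up 47.0% in SNHG15 cells, against 23.3% in vector cells, although its own level was lower in SNHG15 cells. FOS and FOSB together stayed near the bottom, with FOS at 0.851% in SNHG15 cells and 0.275% in vector cells. By deposited FPKM the share of FOSL1 was 41.2% in SNHG15 cells and 68.0% in vector cells, so the difference held on both scales but FOSL2 exceeded FOSL1 in SNHG15 cells by FPKM and not per length covered by exons.

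The Jun family was more even. JUN made up 31.9% of the summed CPM per kb of the 3 Jun genes in SNHG15 cells and 39.6% in vector cells. JUNB made up 43.7% in SNHG15 cells and 42.3% in vector cells, and JUND 24.4% in SNHG15 cells and 18.2% in vector cells. The sum of the Jun genes was 285.1 CPM per kb in SNHG15 cells and 288.6 CPM per kb in vector cells. The sum of the Fos genes was 77.8 CPM per kb in SNHG15 cells and 196.6 CPM per kb in vector cells. The Fos to Jun ratio of messages, which does not depend on the scaling of the libraries, was 0.273 in SNHG15 cells and 0.681 in vector cells (by FPKM 0.131 in SNHG15 cells and 0.291 in vector cells). These sums and ratios were taken without GC removal, on which they depend. With the GC trend removed the ratios of JUN, JUNB and JUND were 0.876, 1.27 and 1.76, against 0.797, 1.02 and 1.33 with it left in.

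**Figure D3:**
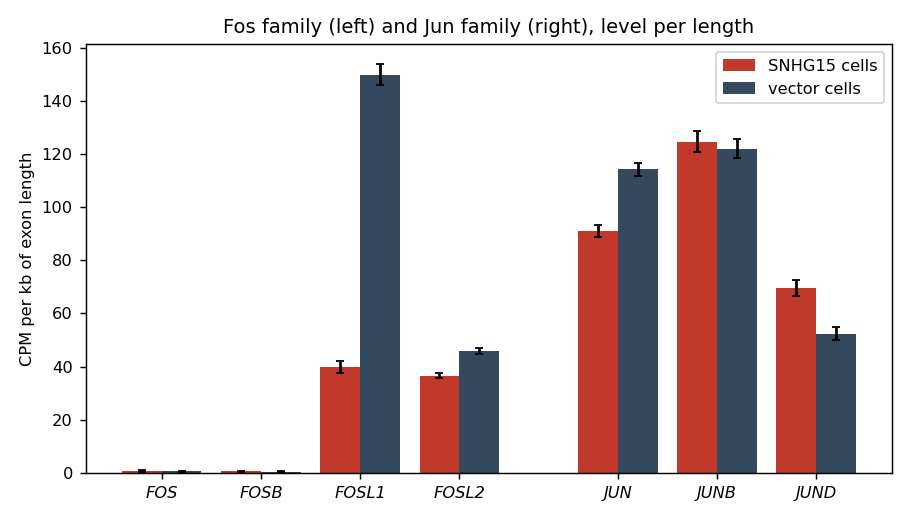
Level per length (CPM per kb covered by exons) of the Fos genes and the Jun genes in SNHG15 cells (left bars) and vector cells (right bars), with 95% counting intervals. The FOSL1 bars stand at 39.9 in SNHG15 cells and 149.8 in vector cells, while FOS and FOSB are near 0 in both.

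The genes whose start lies within 1 Mb of each gene were compared, since ratios differed along the genome. FOSL1 lies in a stretch that was lower as a whole, with 34 of 77 neighbours lower past 1.5-fold and 2 higher, against 12.2% and 13.3% of all genes. The neighbours had a median log2 ratio of −0.53 (−0.33 with the GC trend removed). All genes compared on chromosome 11 had a median of −0.20 with the GC trend removed. FOSL1 itself, at −1.91, was below 76 of the 77. IER2 was below all 48 of its neighbours, which had a median of −0.25 (−0.08 with the GC trend removed). JUNB lies 358.9 kb from IER2 on chromosome 19 and had a ratio of 1.02. EGR1 lies in a stretch that was higher, with a neighbour median of 0.50 over 20 genes, 8 of them higher past 1.5-fold and 1 lower, and was above 1 of the 20. JUND, at 0.41, was above 50 of 55 neighbours, whose median was −0.28, and FOSB, at 0.39, above 41 of 45, whose median was −0.20. FOS, at 0.28, was near the median of its 21 neighbours (0.21), and FOSL2, at −0.32, was below 12 of 13, whose median was −0.09. Chromosome 14, which holds FOS, had a median of 0.26 with the GC trend removed, and the neighbours of FOS 0.20. Few measured genes lie near JUN and MYC, with 4 and 1 neighbours. The part of regional differences in the ratio of FOSL1 was not tested beyond these values.

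**Figure D4:**
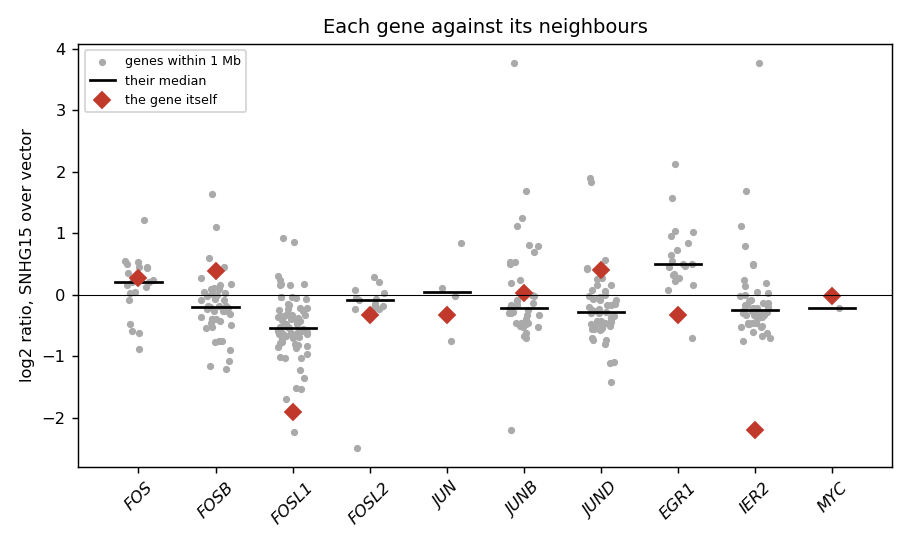
Log2 ratio (SNHG15 over vector) of each gene (diamonds), of the genes that start within 1 Mb of it (grey points) and their median (bars). IER2 lies below all of its neighbours, FOSL1 below 76 of 77, and EGR1 below its neighbour median of 0.50.

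Of 12 other bZIP proteins that can pair with Jun or Fos or bind related sites, 9 were measured, 2 were higher past 1.5-fold, 1 was lower and 6 were neither, with a median log2 ratio of 0.27, against 13.3% higher and 12.2% lower among all genes. With the GC trend removed 3 were higher and 1 lower, against 11.7% and 10.8% of all genes. ATF3, a stress-induced partner of Jun proteins, had 87 counts in SNHG15 cells and 31 in vector cells, 3.25-fold higher (2.13 to 5.07). BATF3, which pairs with Jun proteins in lymphoid cells, had 103 counts in SNHG15 cells and 50 in vector cells, 2.38-fold higher (1.69 to 3.41). MAFF, a small Maf protein that is also an early-response gene, was at 13.6 CPM in SNHG15 cells and 51.3 CPM in vector cells, 3.78-fold lower (3.28 to 4.38). MAFF overlaps PLA2G6 on the opposite strand, which had 115 counts in SNHG15 cells and 173 in vector cells. The ratio of MAFF was thus of the size of those of FOSL1 and IER2, while that of ATF3 ran the other way.

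Of 37 other immediate-early genes, 33 were measured, 4 were higher past 1.5-fold, 7 were lower and 22 were neither, with a median log2 ratio of −0.06. Of all genes, 13.3% were higher and 12.2% lower by the same rule. PIM1, a serine/threonine kinase gene, was at 24.4 CPM in SNHG15 cells and 64.1 CPM in vector cells, 2.63-fold lower (2.35 to 2.94). The Id proteins ID1 and ID3, inhibitors of helix-loop-helix factors, were 1.67-fold (1.64 to 1.70) and 1.63-fold (1.60 to 1.65) lower, while ID2 was 1.63-fold higher (1.38 to 1.92). GADD45B, a stress-response gene, was at 21.6 CPM in SNHG15 cells and 8.86 CPM in vector cells, 2.44-fold higher (2.03 to 2.93). SOCS3, the feedback inhibitor of cytokine receptors, was 1.84-fold higher (1.65 to 2.05). The group thus had members on both sides. With the GC trend removed 4 were higher and 4 lower, against 11.7% and 10.8% of all genes. Those lower were then PIM1, ZFP36, KLF10 and EGR2, at ratios of 0.414, 0.657, 0.555 and 0.477, the last 3 named after their values were seen. EGR2 had only 17 counts in SNHG15 cells and 41 in vector cells. ID1, at a ratio of 0.680, and ID3, at 0.682, were then not past 1.5-fold.

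Of 24 measured kinases and factors upstream of these genes, 3 were higher past 1.5-fold and 2 lower, with a median log2 ratio of 0.04, against 13.3% higher and 12.2% lower among all genes. RPS6KA4, the MSK2 kinase that phosphorylates histone H3 at immediate-early genes, was at 85.8 CPM in SNHG15 cells and 159.4 CPM in vector cells, 1.86-fold lower (1.75 to 1.98). MAPK7, the ERK5 kinase, was 1.51-fold lower (1.38 to 1.65), with the caution that it overlaps B9D1 and MFAP4 on the opposite strand. MAPK8, the JNK1 kinase of c-Jun, was 1.53-fold higher (1.15 to 2.04), and the kinases RPS6KA2 and RPS6KA5 were higher at 71 and 30 counts in SNHG15 cells, against 44 and 17 in vector cells. Both overlap other genes of the table, RPS6KA2 on its own strand. With the GC trend removed 1 was higher (RPS6KA2) and 1 lower (CREB1, a factor of the cyclic AMP response element, named after its values were seen), against 11.7% and 10.8% of all genes. RPS6KA4, MAPK7, MAPK8 and RPS6KA5 were then not past 1.5-fold by the rule.

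Among 13 genes of message and protein turnover, 1 was higher past 1.5-fold and 0 lower, with a median of 0.08, against 13.3% higher and 12.2% lower among all genes. The higher gene was ZFP36L1, which binds AU-rich elements and promotes decay of short-lived messages, at 132.2 CPM in SNHG15 cells and 64.4 CPM in vector cells, 2.05-fold higher (1.92 to 2.20). Its relative ZFP36, counted above among the other immediate-early genes, went the other way, 1.69-fold lower (1.52 to 1.89). MYC's partners and antagonists had 2 of 11 measured higher and 0 lower, against the same shares of all genes, with a median of −0.11. MGA, a repressor that pairs with MAX, was 1.58-fold higher (1.19 to 2.09) and MXI1, a MYC antagonist, 1.65-fold higher (1.18 to 2.33), both from at most 124 counts, and neither passed with the GC trend removed. MAX itself, which overlaps FNTB on the opposite strand, was at a ratio of 0.862 (0.791 to 0.940).

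Of 20 measured target genes of MYC, 2 were higher past 1.5-fold, 1 lower and 17 neither, with a median log2 ratio of 0.01, against 13.3% higher and 12.2% lower among all genes. NPM1, the nucleolar protein nucleophosmin, was 1.64-fold higher (1.56 to 1.71) and ODC1, the ornithine decarboxylase of polyamine synthesis, 1.51-fold higher (1.45 to 1.57). SRM, the spermidine synthase of the same pathway as ODC1, was 1.63-fold lower (1.57 to 1.68). With the GC trend removed only ODC1 of these targets was past 1.5-fold, with NPM1 at a ratio of 1.46 and SRM at 0.754. The median over these targets was close to that over all genes, as was the ratio of MYC to 1.

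The AP-1 target genes, 22 in all, were listed with earlier results of these data known, as were the other lists. Their counts are therefore no independent check, and whether FOSL1 has a part in them was not tested. Of the 22, 18 were measured. Of these, 8 were lower past 1.5-fold, 0 were higher and 10 were neither, against 12.2% lower and 13.3% higher among all genes. The median log2 ratio was −0.43, and −0.36 with the GC trend removed, when 7 were lower and 1 higher, against 10.8% and 11.7% of all genes. The chemokine CXCL8 was at 14.0 CPM in SNHG15 cells and 32.1 CPM in vector cells, 2.29-fold lower (1.97 to 2.66). The urokinase gene PLAU was at 200.2 CPM in SNHG15 cells and 396.7 CPM in vector cells, 1.98-fold lower (1.90 to 2.06), and overlaps C10orf55 on the opposite strand, with 44 counts in SNHG15 cells and 43 in vector cells. HMGA1, a chromatin protein of growing cells, was at 386.5 CPM in SNHG15 cells and 616.0 CPM in vector cells, 1.59-fold lower (1.55 to 1.64), and 1.35-fold with the GC trend removed, which is not past 1.5-fold. The other lower genes included HMGA2, MMP1, IL6 and MMP9, each under 10 CPM in both libraries and named after their values were seen, and MMP9 was not past 1.5-fold with the GC trend removed, while MMP3 was lower by that fit. The targets that were neither included CCND1, the cyclin D1 gene, at a ratio of 1.02, and the urokinase receptor PLAUR at 0.754, also chosen after their values were seen.

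**Figure D5:**
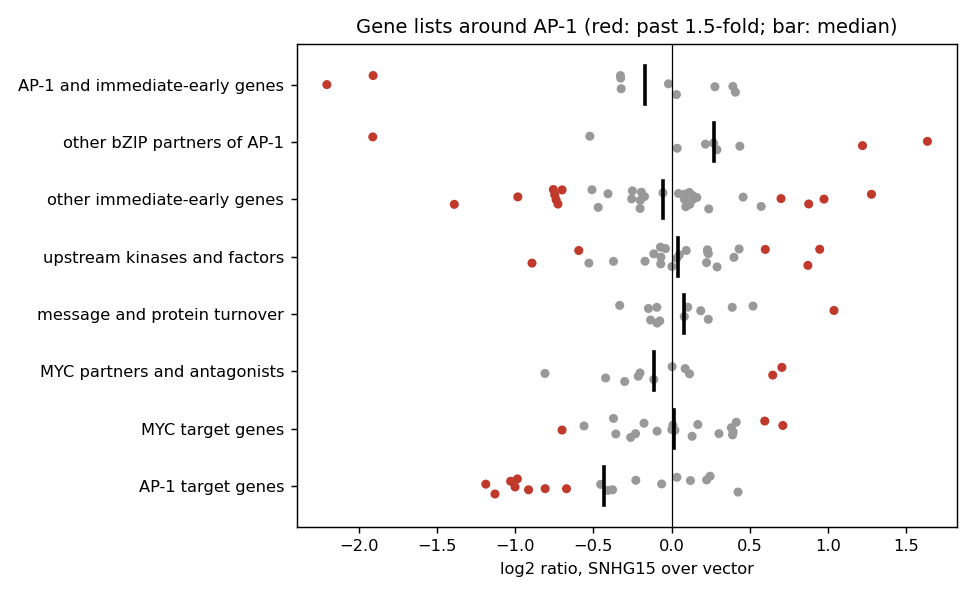
Log2 ratio (SNHG15 over vector) of each measured gene of the lists around AP-1, with genes past 1.5-fold in red and the median of each list as a bar. The AP-1 target genes have a median of −0.43 with red points on the lower side alone. In the top row the red points, FOSL1 and IER2, are also on the lower side. The other immediate-early genes have red points on both sides.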

How the data were processed

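RNA was sequenced from SNHG15-overexpressing and vector control BT549 cells, 1 library per group. The submitters' processing notes name hg38 as genome build. Aligner, counter, annotation release and strandedness are not given in the sources used here. As deposited, the counts are raw whole numbers for each gene, per the file headers. The authors also deposited FPKM. The log2 ratio of FPKM and the p-values were deposited by the authors, from edgeR by the table's name.

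TMM factors (1.04 for SNHG15 cells, 0.960 for vector cells) came from edgeR 4.0.16 (R 4.3.3). Ratios have exact conditional-binomial (Clopper-Pearson) 95% intervals, and a prior count of 2 entered log2 ratios. The comparison took genes averaging at least 1 CPM. Intervals of family shares propagate counting error. GENCODE 29 gave lengths, biotype (all 10 protein-coding) and GC content, whose trend was removed by lowess with a span of 0.5. The functions were tested on simulated data. Reads are not independent molecules. Alternatives were scaling by DESeq2 1.42.0 or by library totals, GC removal, thinning of the deeper library, other filters and other prior counts. FPKM with a pseudocount of 1 was a further alternative, and other lengths were added after the data were seen. Members and lists were chosen with earlier results of these data known. Named genes are the 10 members, ATF3, MAX, SNHG15 and, per list, up to 3 higher and 3 lower genes past 1.5-fold by the interval bound nearest to 1; CDH1, KRT19, GATA3 and FOXA1 were added after their values were seen. With 2 libraries each gene has a single ratio, so no gene was sought for a similar pattern.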

Additional observations from a re-analysis of the deposited data

How the results depend on the processing

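FOSL1 and IER2 were the members beyond 2-fold under TMM, DESeq2 size factors, library totals, GC removal and thinning of the deeper library to the total of the shallower. JUND joined them past 1.5-fold with the GC trend removed. Of 70 member values under the alternatives, 66 kept the sign they had under TMM. The exceptions were 3 values of MYC (0.10 by library totals, 0.05 with the GC trend removed and 0.07 by FPKM with a pseudocount of 1) and 1 of JUNB (−0.01 by DESeq2 size factors). Fewer values, 54 of the 70, lay within the counting interval of the TMM ratio. Those outside it were of IER2, FOSL1, JUND, JUN, FOSL2 and JUNB. For IER2 the log2 ratio of FPKM was −1.68 with the pseudocount and −2.10 as deposited. With the GC trend removed, the log2 ratios of JUND, JUNB and JUN were 0.82, 0.35 and −0.19, against 0.41, 0.03 and −0.33 under TMM. With a minimum of 5 CPM, which tests fewer genes, 394 genes were beyond 2-fold and 2120 past 1.5-fold, against 602 and 3299. The share of FOSL1 in the Fos family, 41.2% in SNHG15 cells and 68.0% in vector cells by FPKM, was 21.9% in SNHG15 cells and 46.0% in vector cells of counts without length, 51.2% in SNHG15 cells and 76.2% in vector cells by length covered by exons, and 52.3% in SNHG15 cells and 77.1% in vector cells by the longest transcript. The share of JUN in the Jun family, 33.7% in SNHG15 cells and 41.2% in vector cells by FPKM, was 47.5% in SNHG15 cells and 55.8% in vector cells of counts, and 31.9% in SNHG15 cells and 39.6% in vector cells by both other lengths. The length used is the only thing that differs between these values. Depth limits FOS, FOSB and EGR1, with at most 121 counts, whose intervals include 1. No paired analysis was possible because each group has 1 library.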
